A study of Homo sapiens with 4 samples.

Results

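The 9 genes described here, called receptor genes for short, serve the delivery of mitochondria and other cargo to the autophagosome: the mitochondrial receptors BNIP3, BNIP3L, FUNDC1 and PHB2, the kinase PINK1, which is no receptor itself, and SQSTM1, NBR1, OPTN and CALCOCO2, receptors of ubiquitin-marked cargo. They were chosen by name, 9 of the 20033 protein-coding genes on assembled chromosomes in RefSeq GRCh38.p14, and every FOXK1 peak that overlapped a gene or the 5 kb on either side of it was taken. The cells were HK-2, an immortalised line of human proximal tubule epithelium, either given 10 ng/ml TGF-β1 for 24 h or kept without it. Each condition had 1 FOXK1 immunoprecipitate and 1 input from the same line, so there was no replicate and no test. The series text speaks of transfection but names no construct, and peak lists hold no expression, so the labelled cell type could not be checked against its markers.

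Selective autophagy works through adaptor proteins that hold a cargo on one side and a protein of the ATG8 family on the growing membrane on the other. At damaged mitochondria the kinase PINK1 builds up on the outer membrane and phosphorylates ubiquitin and the ligase Parkin, after which ubiquitin-binding receptors dock. BNIP3, BNIP3L and FUNDC1 sit in the outer membrane themselves and need no ubiquitin, and the first 2 are known as hypoxia-induced genes. FOXK1 is a forkhead transcription factor described in mouse muscle as a repressor of autophagy genes, and the forkhead family binds DNA with a core of TGTTTAC.

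The value of each peak was the authors' pileup height, a whole number that counts overlapping fragments. The TGF-β1 list held 439136 peaks on assembled chromosomes and the control list 381700, with a median height of 5 in each. Depth was not given in the sources used here, so heights of both lists stand side by side and are not a measure of change. A peak was called strong when it was at least as high as the 10000th highest of its own list, which meant 15 or more in the TGF-β1 list and 17 or more in the control list. A start peak overlapped the 1 kb on either side of the outermost annotated gene start.

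The receptor genes carried strong FOXK1 peaks, most of them at or just inside the gene start, and the strongest of all inside SQSTM1. A strong peak lay somewhere in the gene or its flanks for 6 of 9 genes in the TGF-β1 list, against 29.9% of all protein-coding genes, and for 7 of 9 in the control list, against 31.1%. A strong start peak was found at 4 of 9 genes in the TGF-β1 list and 6 of 9 in the control list, where 15.3% and 16.7% of the 15844 genes with a known strand had one. BNIP3L, OPTN, NBR1 and CALCOCO2 had it in both lists, 4 of 9 against 11.7%. These counts use the outermost starts. Taking every start of the RefSeq promoter table, 5 of 9 genes in the TGF-β1 list and 7 of 9 in the control list had a strong start peak. The gene added was SQSTM1, and the share of all genes was not computed in this way. Counting the whole window, 6 of 9 genes were strong in both lists, against 24.1%. Having some peak says little, because 94.8% and 94.7% of all genes had a peak of any height in the same window, and so did 9 of 9 receptor genes in each list. Whatever its height, a start peak was present at 9 of 9 genes in the TGF-β1 list and 8 of 9 in the control list, where 66.9% and 67.8% of genes had one. The median height of the highest start peak over the 9 genes was 14 in the TGF-β1 list and 23 in the control list, against 6 and 7 over all genes with a known strand. These shares are descriptions, since the genes were picked with earlier results of the same lists known.

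**Figure D1:**
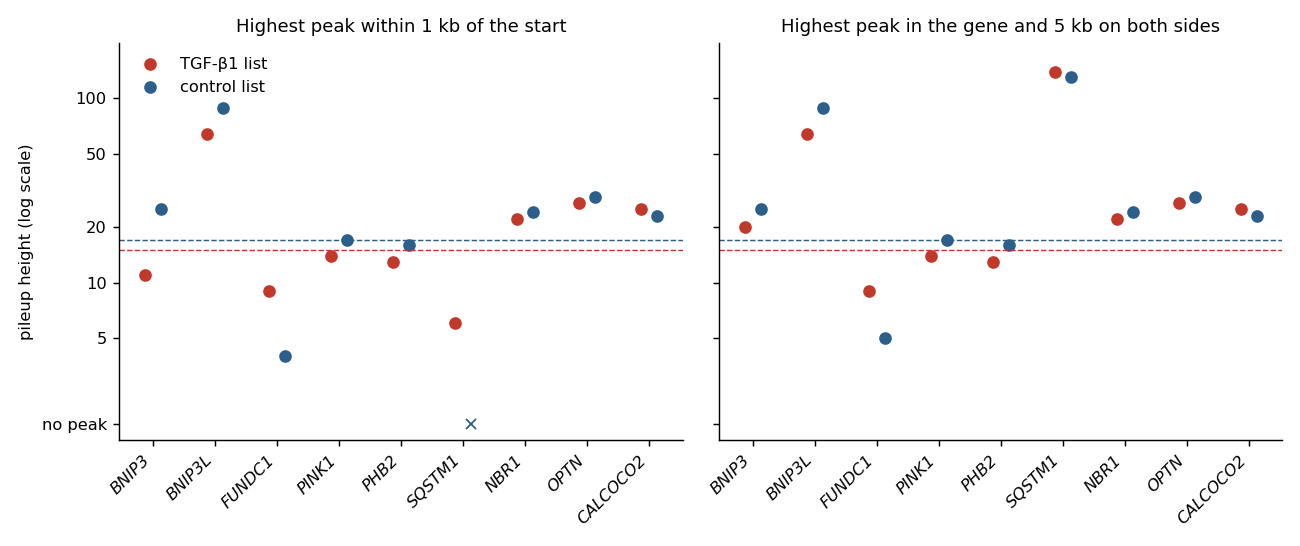
Pileup height, on a log axis, of the highest peak within 1 kb of the start (left) and anywhere in the gene and its 5 kb flanks (right) for the 9 receptor genes, with the TGF-β1 list in red left of the control list in blue and a cross where a list had no peak. Dashed lines mark the strong limits of 15 and 17. SQSTM1, taken at its outermost start, is lowest on the left and, at 138 and 130, highest on the right.

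Among the mitochondrial receptors BNIP3L, also called NIX, had the highest start peak of the 9 genes. It stood at 64 in the TGF-β1 list, from 26382446 to 26383900 on chromosome 8 (hg38), and at 88 in the control list, from 26382374 to 26383326. Both peaks covered the annotated start at 26383054. The control list had a further low peak of height 10 just behind the first, from 26383613 to 26383937, in a stretch that the single TGF-β1 peak also covered. Only 0.795% of genes had a start peak as high in the TGF-β1 list, rank 122 of 15844, and 0.518% in the control list, rank 80. The remaining peaks of BNIP3L were low: 5 TGF-β1 peaks had heights of 4 to 6 and 4 control peaks heights of 4 or 5.

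FUNDC1, an outer membrane receptor on the X chromosome, had no strong peak. The TGF-β1 list held 8 low peaks of heights 3 to 9 and the control list 3 of heights 4 and 5. Its start peaks, 9 in the TGF-β1 list just before the start and 4 in the control list just behind it, did not overlap. Of the 11 peaks, only a pair of height 5 beyond the far end of the gene had a counterpart in the other list.

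BNIP3, on chromosome 10, is the close relative of BNIP3L and had its strong peaks inside the gene rather than across its start. In the TGF-β1 list there were 3 peaks in a row behind the start, with height 11 at 0.54 to 1.32 kb, height 20 at 1.82 to 2.25 kb and height 15 at 2.86 to 4.32 kb. The control list had 2 broader peaks over the same stretch, height 25 at 0.44 to 2.27 kb and height 24 at 2.8 to 4.99 kb. The first control peak overlapped both the 11 and the 20 of the TGF-β1 list. The highest start peak was thus 11 in the TGF-β1 list and 25 in the control list, and the 20 did not count as a start peak because it began over 1 kb behind the start. The 300 bases from 250 before to 50 after the start held no base of a peak in either list. They were rich in G and C, 80.7% against a median of 62.7% over all promoters, and held the letters CACGTG, the core of E-box elements bound by bHLH factors, which contain the hypoxia element core ACGTG. The TGF-β1 list had a low peak of height 5 further upstream, from 131982382 to 131982710, and the control list none there. The bases before the start are shown because no peak of either list covers them, with CACGTG in capitals (chr10:131981924-131982173, minus strand, RefSeq GRCh38.p14).
BNIP3 before the start: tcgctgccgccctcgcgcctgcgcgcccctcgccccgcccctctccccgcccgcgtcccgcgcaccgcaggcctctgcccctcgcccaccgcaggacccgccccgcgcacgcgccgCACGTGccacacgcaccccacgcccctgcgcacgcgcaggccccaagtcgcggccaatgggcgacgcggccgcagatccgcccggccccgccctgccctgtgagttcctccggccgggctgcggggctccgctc

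PHB2, a prohibitin of the inner mitochondrial membrane that serves as a receptor once the outer membrane is torn, had a start peak just under the strong limit in both lists. Its height was 13 in the TGF-β1 list, from 6970204 to 6971269 on chromosome 12, and 16 in the control list, from 6970153 to 6971515. As high or higher were 20.4% of genes in the TGF-β1 list and 18.7% in the control list. The peak is shared with EMG1, a ribosome biogenesis gene that runs the other way from a start 160 bp off, and belongs to PHB2 no more than to EMG1. The bases between both starts lay wholly inside the peak of each list and held CCGGAA, the core bound by ETS factors, once on each strand, shown in capitals (chr12:6970754-6970912, minus strand, RefSeq GRCh38.p14).
PHB2 to EMG1: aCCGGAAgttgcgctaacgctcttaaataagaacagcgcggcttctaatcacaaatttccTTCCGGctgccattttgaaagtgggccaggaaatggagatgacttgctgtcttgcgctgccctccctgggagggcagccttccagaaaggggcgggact

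PINK1, the kinase that marks damaged mitochondria, had a start peak of 14 in the TGF-β1 list, from 20633250 to 20634061 on chromosome 1, and of 17 in the control list, from 20633261 to 20634493. The first was 1 below the strong limit of its list and the second exactly at it, so PINK1 counted as strong in the control list alone. A start peak as high was found at 17.7% of genes in the TGF-β1 list and 16.7% in the control list. A second pair of peaks, 6 in the TGF-β1 list and 12 in the control list, overlapped at the far end of the gene, where an antisense RNA gene, PINK1-AS, also lies.

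**Figure D2:**
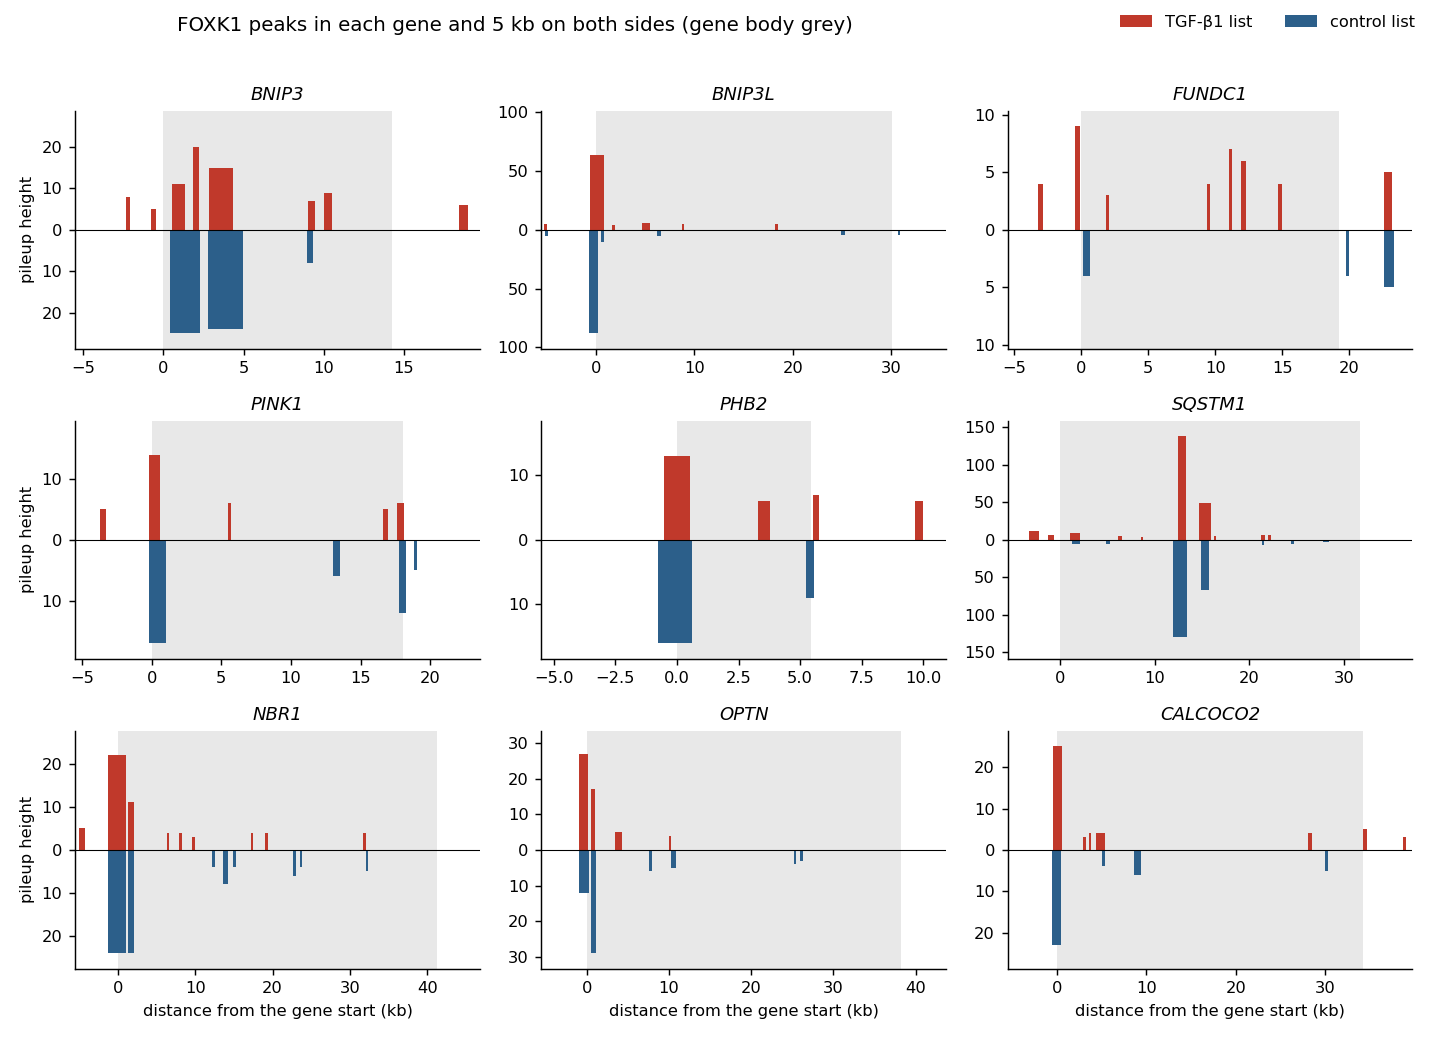
FOXK1 peaks of each receptor gene by distance from the annotated start in kb, with pileup height of the TGF-β1 list upward in red and of the control list downward in blue, bar width as the peak's width or, for narrow peaks, a minimum width, and the gene body in grey. The height scale differs between panels; the high peaks stand at the start in BNIP3L, NBR1, OPTN and CALCOCO2, behind it in BNIP3, and in the middle of the gene in SQSTM1.

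SQSTM1, which encodes p62, the receptor that gathers ubiquitinated proteins into bodies, had the highest peak of all 9 genes, deep inside the annotated gene. Its height was 138 in the TGF-β1 list, from 179818821 to 179819654 on chromosome 5, and 130 in the control list, from 179818375 to 179819827. It ranked 45 among all peaks of the TGF-β1 list and 64 among those of the control list. Among strong peaks inside a protein-coding gene and over 1 kb from every annotated gene end it was the 5th highest of 4437 in the TGF-β1 list and the 9th highest of 4241 in the control list. A neighbouring peak followed with height 49 in the TGF-β1 list, from 179821054 to 179822337, and 67 in the control list, from 179821281 to 179822135. At the outermost annotated start of SQSTM1, which lies 473 bp from that of MGAT4B, the TGF-β1 list had only a peak of 6 and the control list none.

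RefSeq gives SQSTM1 a further start 14512 bp inside the gene, at 179820905, and the pair of high peaks lay on either side of it. Counted from that start, the higher peak ran from position -2084 to -1251 in the TGF-β1 list and from -2530 to -1078 in the control list. The lower peak ran from position 149 to 1432 in the TGF-β1 list and from 376 to 1230 in the control list. With this start in place of the outermost one, the start peak of SQSTM1 was 49 in the TGF-β1 list and 67 in the control list, strong in both. The window around this start held 0 bases of a peak in either list. Its bases before the start are shown because they separate both peaks, with GGGCGG or its complement CCGCCC, the GC box bound by SP1, in capitals (chr5:179820655-179820904, plus strand, RefSeq GRCh38.p14).
SQSTM1 before the inner start: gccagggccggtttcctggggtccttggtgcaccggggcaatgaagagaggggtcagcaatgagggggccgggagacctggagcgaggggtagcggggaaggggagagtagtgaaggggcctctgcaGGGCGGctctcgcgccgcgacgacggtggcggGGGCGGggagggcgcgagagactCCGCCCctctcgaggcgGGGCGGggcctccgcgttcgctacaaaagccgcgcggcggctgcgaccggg

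The other ubiquitin-binding receptors had strong start peaks in both lists, of moderate height. CALCOCO2, also called NDP52 and best known for binding invading bacteria and mitochondria, had 25 in the TGF-β1 list, from 48830568 to 48831648 on chromosome 17, and 23 in the control list, from 48830513 to 48831543. In the TGF-β1 list 5.3% of genes had a start peak as high, and in the control list 8.85%. No other protein-coding gene start lay within 1 kb of this peak. Its promoter was the 1 of 7 receptor gene promoters with the forkhead core, which lies on the minus strand and reads GTAAACA on the plus strand, at position -226 (48830809 to 48830815), inside the peak of each list. The bases before the start are shown with that core in capitals (chr17:48830785-48831034, plus strand, RefSeq GRCh38.p14).
CALCOCO2 before the start: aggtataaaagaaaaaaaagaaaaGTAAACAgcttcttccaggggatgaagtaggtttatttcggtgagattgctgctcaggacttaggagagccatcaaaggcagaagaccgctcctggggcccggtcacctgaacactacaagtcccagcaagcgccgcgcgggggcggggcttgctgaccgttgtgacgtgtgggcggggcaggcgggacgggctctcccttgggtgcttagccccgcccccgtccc

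OPTN, optineurin, a receptor activated by the kinase TBK1, had a pair of start peaks in each list, in the opposite order of height. The first peak ran across the start, with most of its length before it. Its height was 27 in the TGF-β1 list, from 13099099 to 13100215 on chromosome 10, and 12 in the control list, from 13099189 to 13100334. Behind the start, the height was 17 in the TGF-β1 list, from 13100658 to 13101109, and 29 in the control list, from 13100584 to 13101171. Each peak overlapped its counterpart, so both sites were in both lists. With 1 library per condition this reversal could not be tested. The outermost annotated start of CCDC3 lies 93 bp from that of OPTN and runs the other way. Whether CCDC3 has further starts elsewhere was not examined. The bases between both outermost starts lay inside the first peak of each list. They are shown with GGGCGG in capitals (chr10:13099990-13100081, plus strand, RefSeq GRCh38.p14).
OPTN to CCDC3: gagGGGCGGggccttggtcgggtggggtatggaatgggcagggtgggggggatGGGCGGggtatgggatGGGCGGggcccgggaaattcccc

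NBR1, a receptor for ubiquitinated proteins and peroxisomes, had the widest start peaks of the 9 genes. They measured 2276 bp with height 22 in the TGF-β1 list, from 43169151 to 43171426 on chromosome 17, and 2344 bp with height 24 in the control list, from 43169105 to 43171448. The outermost annotated start of BRCA1, which runs the other way, lies 82 bp from that of NBR1 and is under the same peak. Whether BRCA1 has further starts elsewhere was not examined, so the peak is not assigned to the main BRCA1 promoter. A separate peak from 1.38 to 2.04 kb behind the NBR1 start had height 11 in the TGF-β1 list, and its counterpart from 1.34 to 2.09 kb had 24 in the control list. Across the rest of this gene, 41280 bp long, no peak was higher than 5 in the TGF-β1 list or 8 in the control list.

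Ordered by the highest start peak, the TGF-β1 list ran BNIP3L, OPTN, CALCOCO2, NBR1, PINK1, PHB2, BNIP3, FUNDC1 and SQSTM1, and the control list BNIP3L, OPTN, BNIP3, NBR1, CALCOCO2, PINK1, PHB2 and FUNDC1, with no start peak at SQSTM1. These orders use the outermost starts, and with its inner start SQSTM1, at 49 and 67, would follow BNIP3L in both lists. Without replicates there is no spread to say which neighbours in either order differ. OPTN, CALCOCO2 and NBR1 stood within 27 to 22 in the TGF-β1 list, and OPTN, BNIP3, NBR1 and CALCOCO2 within 29 to 23 in the control list.

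**Figure D3:**
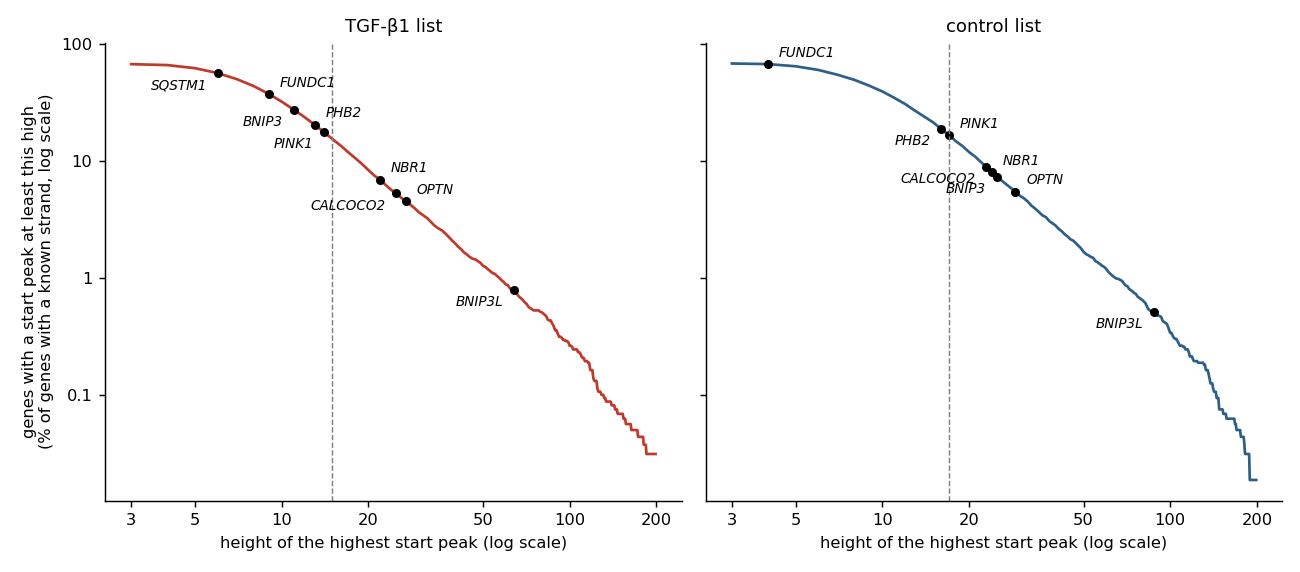
Share of the 15844 protein-coding genes with a known strand whose highest start peak was at least the height on the x axis, both axes on log scales, in the TGF-β1 list (left) and the control list (right). Points mark the receptor genes and dashed lines the strong limits of 15 and 17; BNIP3L lies in the top 0.795% and 0.518% of genes.

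High receptor-gene peaks were found in both lists and low ones mostly in a single list, as for peaks in general. Of 61 peaks in the 9 windows of the TGF-β1 list, 21 overlapped a control peak, and of 43 control peaks, 21 overlapped a TGF-β1 peak. Those shares were 34.4% (exact binomial 95% interval 22.7 to 47.7) and 48.8% (33.3 to 64.5), against 22.9% and 26.1% of all peaks of each list. At height 10 or more, 13 of 14 TGF-β1 peaks and 14 of 14 control peaks had a counterpart, where 84.7% and 82.8% of all such peaks did. The TGF-β1 peak without one had height 12 and lay upstream of the outermost SQSTM1 start, from 179803193 to 179804226. Below height 10 the counts were 8 of 47 and 7 of 29, close to the 18.4% and 20.0% of all such peaks. Intervals cover counting error only.

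**Figure D4:**
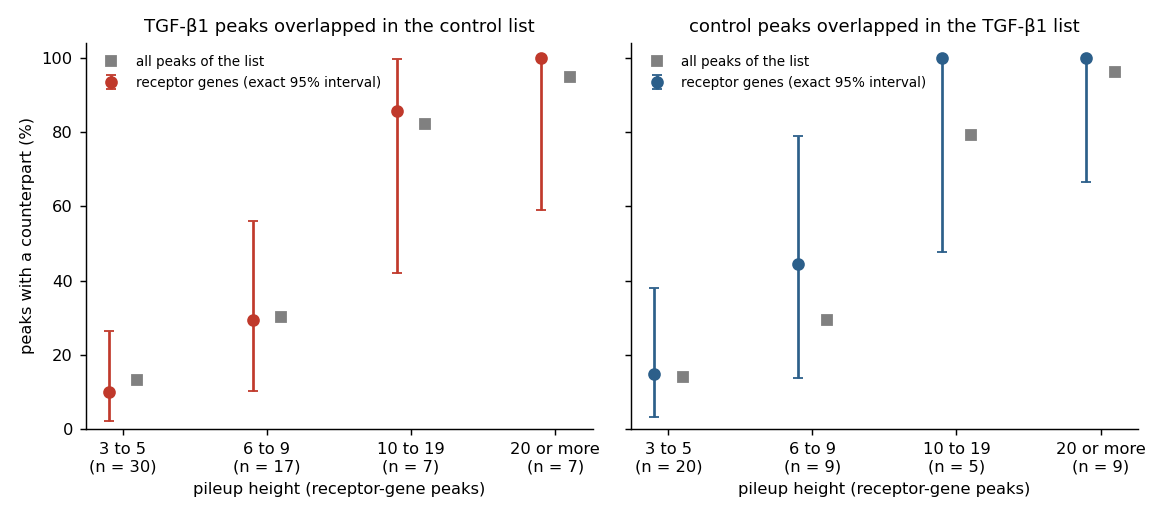
Share of peaks, in percent, that overlapped a peak of the other list by 1 bp or more, by height class, for TGF-β1 peaks (left) and control peaks (right). Circles with exact binomial 95% intervals are receptor-gene peaks, with their number under each class, and squares are all peaks of the list; at height 20 or more, 7 of 7 and 9 of 9 receptor-gene peaks had a counterpart.

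High peaks were also wider. Counted at the outermost starts, the strong ones were start peaks more often than in all gene windows, though not the highest, those of SQSTM1. The lower of the high SQSTM1 peaks did lie within 1 kb of the inner start of that gene in each list. Receptor-gene peaks of height 10 or more had a median width of 1050 bp in the TGF-β1 list and 1088.5 bp in the control list, and those under 10 had 332 and 311 bp. Over all peaks of height 10 or more the medians were 675 and 637 bp. Of the strong peaks in the 9 windows, 5 of 9 in the TGF-β1 list and 6 of 10 in the control list were start peaks, where 33.5% and 36.2% of strong peaks in all gene windows were. Over the 9 windows there were 1.89 TGF-β1 and 1.33 control peaks per 10 kb, against 1.7 and 1.48 over all protein-coding gene windows. Inside the genes, away from both ends, lay 37 TGF-β1 and 26 control peaks. Of these, 9 and 8 had a counterpart, where 22.9% and 26.1% of all peaks of each list did. The flanks held 10 TGF-β1 peaks, 6 upstream and 4 downstream, and 2 control peaks, 1 on each side. Counts inside genes and in flanks were not computed over all genes, so these are descriptions only.

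Promoter sequences were matched for 7 of the 9 genes, not for PINK1 and BNIP3L. Each was compared with the promoters of 15842 protein-coding genes, with every motif searched on both strands. There was 1 window per gene, the one nearest its outermost start. These counts thus leave out the window of the inner SQSTM1 start, and a further NBR1 window that held CCAAT. The forkhead core TGTTTAC was in 1 of 7 receptor promoters, CALCOCO2, and in 2.67% of all, and the shorter TGTTTA in 1 of 7 and 9.02%. GGGCGG was in 7 of 7, against 58.3%. CACGTG was in BNIP3 only, against 8.82%, and ACGTG, which CACGTG contains, in BNIP3 and CALCOCO2, against 23.7%. CCGGAA was found in FUNDC1, PHB2 and SQSTM1, against 22.7%, CCAAT in BNIP3 and FUNDC1, against 36.4%, TGACNNNGC, the core of the antioxidant response element, in CALCOCO2, against 14.4%, and the AP-1 core TGANTCA in 0 of 7, against 5.7%. A match is no more than letters in the window, and every strong receptor-gene peak was wider than it. The windows of BNIP3 and SQSTM1 held no base of a peak in either list, and that of FUNDC1 none in the control list. Peak sequences outside the promoter windows were not searched, so these counts do not describe the letters under the peaks.

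Related genes of the same pathways had strong start peaks at lower shares than the 9 receptors, with no test of the difference. In the TGF-β1 list the other selective autophagy receptors came close, with 5 of 12 against 4 of 9. Of the PINK1 and Parkin pathway, 20 of 23 genes had a known strand, and 5 had a strong start peak in the TGF-β1 list and 6 in the control list. The highest in the TGF-β1 list were MARCHF5, a mitochondrial ubiquitin ligase, with 28 and 37 in the TGF-β1 and control lists, PARL, the protease that cleaves PINK1, with 22 and 27, TOMM70, an import receptor, with 19 and 25, and TBK1, the kinase that acts on OPTN, with 18 and 19. Of other mitochondrial receptors and cofactors, 3 and 2 of 8 were strong. FIS1, an outer membrane adaptor of mitochondrial fission, had 72 and 75, above BNIP3L in the TGF-β1 list and below it in the control list. AMBRA1, a regulator of autophagy initiation, had 17 and 14, DNM1L, the fission dynamin, 17 and 19, and NIPSNAP2 8 and 10.

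Of the other selective autophagy receptors, 5 of 12 with a known strand had a strong start peak in the TGF-β1 list and 4 of 12 had one in the control list. In the TGF-β1 list the 4 highest belonged to receptors of the endoplasmic reticulum: SEC62 with 39 and 40 in the TGF-β1 and control lists, CCPG1 with 23 and 16, RETREG2 with 22 and 18 and RETREG3 with 20 and 25. TAX1BP1, a ubiquitin-binding receptor named here after its values were seen, had 14 in the TGF-β1 list and 24 in the control list, where it stood above RETREG2 and CCPG1. The median start height was 13.5 in the TGF-β1 list and 15 in the control list for this group, against 14 and 23 for the 9 genes and 10 and 11.5 for the PINK1 and Parkin pathway. A strong peak anywhere in the window was found at 9 and 8 of 14 genes of this group, against 6 and 7 of the 9 genes. It was found at 8 and 9 of 23 genes of the PINK1 and Parkin pathway, and at 4 and 3 of 10 other mitochondrial receptors and cofactors.

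**Figure D5:**
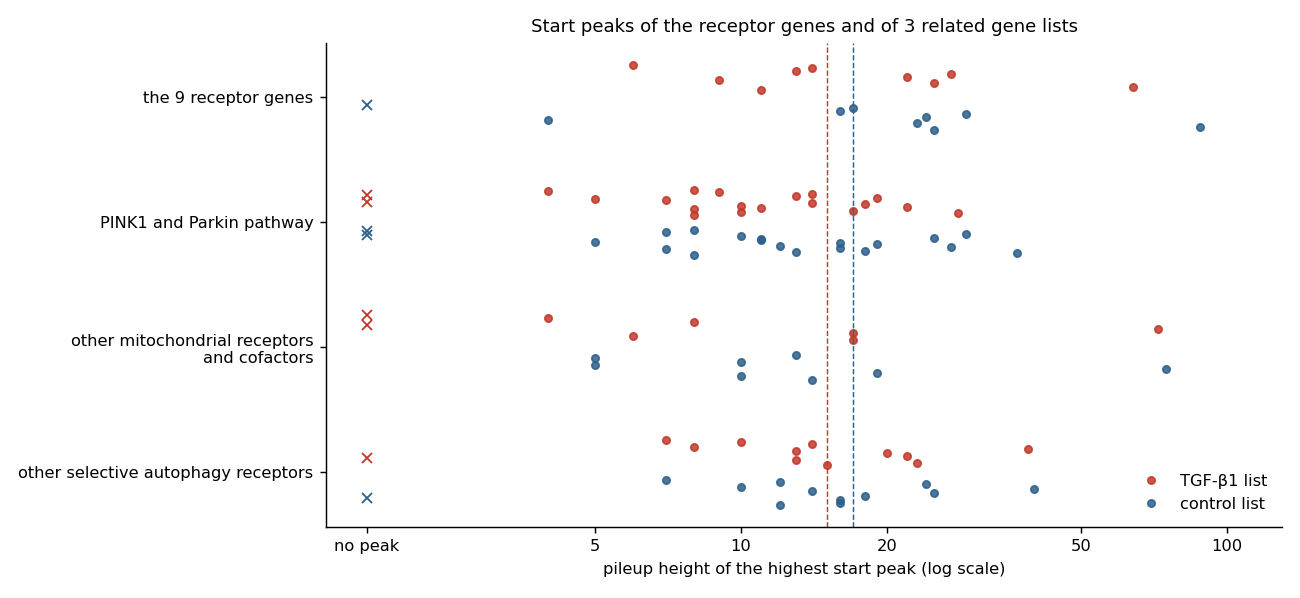
Pileup height, on a log axis, of the highest start peak of each gene in the 9 receptor genes and in 3 related lists, with the TGF-β1 list in red above the control list in blue and crosses for genes without a start peak. Dashed lines mark the strong limits of 15 and 17; the highest points are BNIP3L at 64 and 88 and FIS1 at 72 and 75.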

How the data were processed

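FOXK1 chromatin immunoprecipitates of 2 conditions, each with an input, were deposited as 1 peak list per condition. The submitters' processing notes name bcl2fastq 2.17, MACS2 2.1.1.20160309 and hg38; aligner, read filters, peak threshold and depth are not given in the sources used here. The signal per peak deposited by the authors is a whole-number pileup height, 3 or higher, with no scaling stated; the files have no header, and the unit was read from their values. Starts were read as counting from 0. Overlaps were computed in pandas 2.3.3 and numpy 2.4.6 under Python 3.11.15, intervals in scipy 1.17.1 and figures in matplotlib 3.10.9; the overlap code was tested on simulated peaks. Gene positions came from RefSeq GRCh38.p14, the chromosome coordinates of hg38. Strand came from the RefSeq promoter table for 15842 protein-coding genes, and from general knowledge for PINK1 and BNIP3L. Exons were not used here. With 1 library per condition no test was run. Members, lists, alternatives and the rule for named genes were chosen with earlier results of these data known. The rule took the 9 genes and genes whose start lies within 1 kb of their strong peaks. It also took the 4 highest TGF-β1 start peaks of each related list. MGAT4B, EMG1, PINK1-AS and TAX1BP1 were named outside this rule.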

Additional observations from a re-analysis of the deposited data

How the results depend on the processing

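Of 86 alternative values, 75 stayed the same (counts within 1.5 times, shares within their interval, heights identical), and 11 did not. Among heights at the start, 46 of 54 were identical. A start window of 500 bp gave BNIP3 5 and SQSTM1 0 in the TGF-β1 list and OPTN 12 in the control list. A window of 2.5 kb gave BNIP3 20 and SQSTM1 12 in the TGF-β1 list and SQSTM1 6 in the control list. Taking every start of the RefSeq promoter table gave SQSTM1 49 in the TGF-β1 list and 67 in the control list, because a further start lies beside its high peaks. Calling peaks strong down to rank 20000 gave 7 receptor genes with a strong start peak in the TGF-β1 list in place of 4, because its lower minimum height took in PINK1, PHB2 and BNIP3. Only peaks of height 10 or more gave shares with a counterpart of 92.9% in the TGF-β1 list and 100% in the control list. The forkhead count stayed at 1 with shorter or wider letters. No paired analysis was possible because each condition had 1 library. Unknown depth limits every comparison of heights between the lists.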
